A study of Mus musculus with 12 samples.

Results

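Of the 82577 open chromatin peaks in the table for Olig2+ nuclei, 35834 (43.4%) were distal peaks that neither of the other sorted populations shared. They were the peaks annotated to an intron or to intergenic sequence, more than 1000 bp from the nearest annotated transcription start site (TSS), that overlapped no peak of the microglia table and none of the NeuN+ table by even 1 bp. They made up 64.1% of the 55891 distal peaks in the Olig2+ table, and the 3 tables together held 281974 peaks. Below they are called Olig2-only distal peaks.

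Open chromatin was mapped by ATAC-seq, whose transposase cuts and tags DNA that is not packed away, so that the number of tags in a peak measures how open that stretch is. The mice were C57BL/6 at 4 months of age and were either wild type (WT) or SgshKO. Sgsh encodes the lysosomal enzyme sulfamidase, which removes sulfate during the breakdown of heparan sulfate, and its loss in people causes a childhood neurodegenerative storage disease, mucopolysaccharidosis IIIA. From the forebrain, lightly formaldehyde-fixed nuclei were sorted as PU.1-/OLIG2+/NEUN- (Olig2+ nuclei) or PU.1-/OLIG2-/NEUN+ (NeuN+ nuclei), and live microglia were sorted as CD11b+/CD45low/CX3CR1+ cells. Each sort had 2 WT and 2 SgshKO libraries, 12 in all. How the Sgsh allele was made, the sex of the mice, the number of animals behind a library and any batch are not given in the labels used here. Nothing in the labels says that the 2 libraries of a group came from separate animals, so the p-values below measure the spread between these libraries, which may be technical.

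Distal open chromatin is where most enhancers lie, and enhancers are the part of the genome that differs most from cell type to cell type, while start sites are often open in many cell types. OLIG2 is a basic helix-loop-helix transcription factor that is present from the oligodendrocyte precursor to the mature, myelin-forming oligodendrocyte and acts with SOX10, MYRF and other factors at such elements. Myelin proteins such as MBP and MOBP are made in very large amounts by the mature cells. Some astrocytes also carry OLIG2, so the gate can hold cells of more than the oligodendrocyte lineage. In these bulk libraries, fewer nuclei of a cell type and a less open site in each nucleus cannot be told apart.

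The markers fit the label of the sort in part. All 32 genes of the mature oligodendrocyte list had an Olig2+ peak within 1000 bp of a TSS, with a mean of 250 normalized tags per gene (tags scaled to 10000000 per library). The corresponding count was 15 of 18 genes of the oligodendrocyte precursor list, at 24.6 tags per gene, and 11 of 22 of the astrocyte list, at 33.1. For the lists of other cell types it was 5 of 20 neuronal genes at 3.97 tags per gene, 2 of 16 microglial genes at 16.1, and 1 of 14 endothelial and pericyte genes at 0.454. Gfap, Aqp4, Aldh1l1 and Slc1a2, which define astrocytes, were among the astrocyte genes without such a peak, and Agt, S100b and Id3 were among the 11 with one. Gfap, Aqp4, Aldh1l1 and Slc1a2 were each the nearest gene of at least 1 Olig2-only distal peak.

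Only 203 of the Olig2-only distal peaks (0.567%) touched the 250 bases before a RefSeq gene start (GRCm38.p6), and these are the ones whose sequence can be shown. Coordinates here and below are those of mm10. In 182 of the 203 the start belonged to a long non-coding RNA and in 21 to a protein-coding gene, so these peaks are distal by the authors' nearest-TSS annotation but not by every RefSeq gene model. The stretches below are the overlap of peak and window before the start. They show the strongest such peak, which lies in intron 3 of Aatk, 2373 bp upstream of the microRNA gene Mir338 (chr11:120017155-120017380, minus strand), a strong peak near Ptgds, the prostaglandin D2 synthase gene, that was lower in SgshKO (chr2:25478382-25478587, minus strand), and peaks near the potassium channel gene Kcna6 (chr6:126761473-126761632, plus strand) and at a RefSeq start of the phosphatase gene Mtmr2 (chr9:13765704-13765953, plus strand) that were higher. Capitals mark a SOX motif (ACAATGG or ACAAAGG, or its complement on the other strand) in the first and last and an AP-1 motif (TGACTCA or TGAGTCA) in the Kcna6 peak.
Mir338 peak in Aatk: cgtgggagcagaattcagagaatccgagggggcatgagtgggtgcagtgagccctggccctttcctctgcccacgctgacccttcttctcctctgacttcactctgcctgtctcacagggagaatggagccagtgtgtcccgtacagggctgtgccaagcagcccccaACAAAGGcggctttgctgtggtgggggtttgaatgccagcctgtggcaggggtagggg
Ptgds peak: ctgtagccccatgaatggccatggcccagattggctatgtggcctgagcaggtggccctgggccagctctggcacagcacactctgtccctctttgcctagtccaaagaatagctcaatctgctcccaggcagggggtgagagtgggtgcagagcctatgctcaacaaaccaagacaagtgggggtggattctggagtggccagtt
Kcna6 peak: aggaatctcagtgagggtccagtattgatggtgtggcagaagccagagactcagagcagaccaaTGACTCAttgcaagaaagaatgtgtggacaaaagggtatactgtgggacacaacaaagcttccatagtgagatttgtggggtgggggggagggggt
Mtmr2 peak: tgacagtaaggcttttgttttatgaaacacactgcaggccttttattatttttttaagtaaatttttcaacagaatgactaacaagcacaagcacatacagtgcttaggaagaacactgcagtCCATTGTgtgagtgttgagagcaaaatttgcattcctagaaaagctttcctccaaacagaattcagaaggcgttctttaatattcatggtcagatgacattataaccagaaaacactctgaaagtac

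Over the 203 windows of 250 bases, a SOX motif on either strand stood in 14.8%, against 7.92% of all 32851 windows of the same length. The E-box CAGCTG, the form that OLIG2 and other helix-loop-helix factors can bind, stood in 24.1% against 13%. The E-box CATATG stood in 1.48% against 3.46%, the AP-1 motif in 4.93% against 4.46%, and the site bound by MITF, TFEB and TFE3 (TCACGTGA) in 0.493% against 0.785%. The long NFI motif was found in 0 of the 203 windows and in 0.0365% of all. A motif counted in a window need not lie in the part that the peak covers. Long non-coding starts made up 182 of the 203 windows, and the 32851 windows were not matched for this. These shares describe a small group of peaks that sit at annotated starts and were not tested.

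MicroRNA genes were the nearest gene of 1356 Olig2-only distal peaks, at 325 genes. Both of the microRNAs best known for driving oligodendrocyte differentiation, miR-219 and miR-338, had such peaks, 17 nearest Mir219a-2 and 10 nearest Mir338. Their mature forms are shown with the seed, bases 2 to 8, in capitals. The 3 seeds differ, so the arms fall into no shared seed group.
mmu-miR-219a-5p: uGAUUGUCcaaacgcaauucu
mmu-miR-338-3p: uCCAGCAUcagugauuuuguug
mmu-miR-338-5p: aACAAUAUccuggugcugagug

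The Mir338 peak printed above (chr11:120017091-120017380) was among the 5 strongest Olig2-only distal peaks. It held 635 and 602 normalized tags in the WT libraries and 560 and 515 in the SgshKO libraries. The SgshKO libraries lay below both WT libraries, at a log2 change of -0.20 (SE 0.06, limma adjusted p = 0.0147), but the call was lost without WT replicate 1 or SgshKO replicate 2, and with edgeR. The strongest of the Mir219a-2 peaks (chr2:29856609-29856986, 11070 bp upstream) held 479 and 465 tags in WT and 392 and 437 in SgshKO, with a log2 change of -0.19 (SE 0.07, limma adjusted p = 0.0449). At Mir219a-2, 0 of the 17 peaks were called higher and 2 lower, and at Mir338 0 of 10 higher and 1 lower. Over all Olig2-only distal peaks 7.26% were called higher and 12.6% lower, and over the whole Olig2+ table the shares were 8.17% and 11.7%, so these few calls were near the background. Of the 1356 peaks nearest any microRNA gene, 92 were called higher and 185 lower.

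Most Olig2-only distal peaks lay inside genes but far from a TSS. Their median width was 248 bp (quartiles 221 and 299 bp), against 245 bp for all Olig2+ peaks. Introns held 23402 of them (65.3%) and intergenic sequence 12432 (34.7%). The median distance to the nearest TSS was 22357 bp, 69.9% lay more than 10000 bp away and 13% more than 100000 bp away. The nearest peak of microglia or NeuN+ nuclei was a median of 2486 bp away, and 6444 of them (18.0%) lay within 500 bp of such a peak. At the distance limit itself, the 2 peaks just inside, at 1001 bp from the TSS of Tmem63a and of Spag9, averaged 15.7 and 7.46 normalized tags in WT, and the 2 just outside, at 999 bp in Mag and 997 bp in Zfp687, averaged 47.2 and 9.02.

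The number of Olig2-only distal peaks per gene varied widely. The nearest genes numbered 7994, of which 3303 had a single Olig2-only distal peak, while 319 genes with at least 20 such peaks held 10448 of them (29.2%). Among the genes with most was Rnf220, a ubiquitin ligase gene, with 109. The long non-coding RNA (lncRNA) gene 4833428L15Rik and Kazn, which encodes the junction protein kazrin, had 94 each. Other leading genes were A330074K22Rik with 93, Gse1 with 89, the zinc-finger repressor gene Zfp536 with 86 and Gm10532 with 82.

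Most of the nearest genes had a start site that was open in other sorts too. Of the 319 genes with at least 20 such peaks, 88.7% had an Olig2+ peak within 1000 bp of a TSS, 79.3% a NeuN+ peak and 69.9% a microglial peak, and 63.9% had one in all 3 tables. An open start in the Olig2+ table alone was seen at 6.27% of them. Over all 7994 nearest genes the shares were 67.7%, 69.0% and 65.2%, and 3.45% were open in the Olig2+ table alone.

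When peaks no more than 10000 bp apart were joined, they formed 13493 clusters. Of these, 8721 were single peaks, and 1395 clusters of at least 5 peaks held 18638 of them (52.0%). By summed tags the first cluster included the locus of Sox10, the transcription factor that directs oligodendrocyte differentiation and myelin gene expression. It spanned 153094 bp (chr15:79088006-79241099), across Sox10, Polr2f, Pick1, Micall1 and Eif3l, with 138 peaks. Pick1 was the nearest gene of 45 of them and Sox10 of 14. Other leading clusters were the 97 peaks around Itpk1 (chr12:102607920-102708663), the 99 from Tnnt2 to Csrp1 (chr1:135717681-135869364) and the 96 in Rnf220 (chr4:117307709-117442445).

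The 5 strongest Olig2-only distal peaks lay in introns of genes with varied roles. The peak in intron 1 of Kcnj10 (chr1:172349913-172350244), the glial inward rectifier potassium channel Kir4.1, held 906 and 844 normalized tags in WT and 769 and 792 in SgshKO. In Amotl2 (chr9:102724035-102724251), an angiomotin family gene of the Hippo pathway, the peak held 777 and 795 in WT against 652 and 651 in SgshKO. The groups did not overlap at either peak, with log2 changes of -0.16 (SE 0.05, limma adjusted p = 0.0191) and -0.27 (SE 0.05, adjusted p = 0.000362). The Kcnj10 call was lost without WT replicate 1 or SgshKO replicate 1 and with edgeR.

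A peak in intron 2 of the splicing-related gene Clasrp (chr7:19600539-19600861) held 822 and 780 tags in WT against 535 and 585 in SgshKO, the clearest fall among the 5 (log2 change -0.52, SE 0.06, limma adjusted p = 7.7e-08). By contrast, the peak in intron 32 of Dysf (chr6:84134648-84134883), the gene for the membrane repair protein dysferlin, held 607 and 619 tags in WT and 631 and 625 in SgshKO. Its log2 change of 0.03 (SE 0.05, limma adjusted p = 0.691) was not called. With the Mir338 peak, 4 of the 5 strongest peaks were called lower in SgshKO and 0 higher.

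The comparison of SgshKO with WT asked how loss of the enzyme altered accessibility at these elements. The Olig2+ libraries had 19279923 and 19555924 tags in WT and 16264397 and 15044194 in SgshKO, of which 30.9 to 31.8% fell in peaks. Summed over all Olig2-only distal peaks, the normalized tags came to 852968 and 870374 in WT against 801214 and 821918 in SgshKO. As a share of the tags in all Olig2+ peaks this was 26.8% and 27.4% in WT and 25.9% and 25.8% in SgshKO. Both SgshKO libraries lay below both WT libraries, by 1.23 percentage points on average, and the exact two-sided permutation test gave p = 0.333, the smallest value that 2 libraries against 2 allow.

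Peak by peak, 7103 of the 35834 (19.8%) were called changed (limma on log2(normalized tags + 1), Benjamini-Hochberg adjusted p under 0.05 over the whole table), the same share as over all Olig2+ peaks, where it was 19.8%. Of these, 2602 (7.26%) were higher in SgshKO and 4501 (12.6%) lower, beside 8.17% higher and 11.7% lower over the whole table. The median log2 change was 1.00 among those called higher and -1.06 among those called lower, and 1307 rose and 2563 fell by at least 2-fold. In 7095 of the 7103, the SgshKO libraries did not overlap the WT libraries. A call from 2 libraries against 2 nearly requires this, so the count adds no support to the calls. The number called fell to 2552 without WT replicate 1 and to 2631 without WT replicate 2, and was 6803 and 6975 without SgshKO replicate 1 and replicate 2. On the recovered reads edgeR called 7536 and DESeq2 1272. The loss of calls without a WT library and with DESeq2 held gene by gene: of 28 genes with calls that were followed through the alternatives, all 28 had fewer in their leading direction without WT replicate 1, without WT replicate 2 and with DESeq2.

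The balance of the 2 directions moved with the scaling. With the tags scaled as deposited, 36.6% of the calls were higher in SgshKO. This share was 46.5% with median-of-ratios scaling, 47.3% with edgeR, 48.3% with DESeq2, 50.9% after quantile normalization and 52.7% after cyclic loess. Over all Olig2+ peaks it was 41.2% as deposited and 53.1%, 53.6%, 60.9%, 53.2% and 53.9% under the same settings in that order. The median log2 change of the Olig2-only distal peaks was -0.11 (quartiles -0.51 and 0.28), against -0.07 over all Olig2+ peaks, and after quantile normalization it was -0.03 against -0.01. Under each of these settings the median of the Olig2-only distal peaks stayed below that of the whole table.

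Among distal peaks, those shared with another sort had the lower medians. The 6982 distal Olig2+ peaks shared with both microglia and NeuN+ nuclei had a median log2 change of -0.23, with 5.30% called higher and 15.9% lower. The 8823 shared with NeuN+ nuclei alone had a median of -0.17 (5.04% higher, 14.5% lower) and the 4252 shared with microglia alone one of -0.16 (5.64% and 14.1%). Peaks within 1000 bp of a TSS, 20120 in number, were balanced the other way, with a median of 0.05, 12.7% called higher and 7.56% lower. The Olig2-only distal peaks, at 7.26% and 12.6%, stood between the start sites and the shared distal peaks. These are shares of peaks from the same 4 libraries and were not tested against each other.

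Within the Olig2-only distal peaks, the shares called differed by position. Intronic peaks had a median log2 change of -0.15 (5.90% called higher, 13.1% lower) and intergenic peaks one of -0.03 (9.82% and 11.6%). Between 1000 and 5000 bp from a TSS, 7.13% were called higher and 8.11% lower. The share called lower was 12.0% from 5000 to 20000 bp, 13.9% from 20000 to 100000 bp and 15.8% beyond 100000 bp, where 10.3% were called higher.

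The called share also depends on how strong a peak is. In the strongest 25% of the Olig2+ table by mean tags, 15.8% of the 5249 Olig2-only distal peaks were called higher and 23.7% lower, against 15.5% and 16.9% of all Olig2+ peaks of that strength. Start-site peaks of the same strength stood at 17.8% and 9.57%. In the weakest 25%, which held 12031 Olig2-only distal peaks, 6.57% were called higher and 12.0% lower, against 6.63% and 11.6% of all peaks there. The plot of called shares by signal sets these groups side by side.

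**Figure D1:**
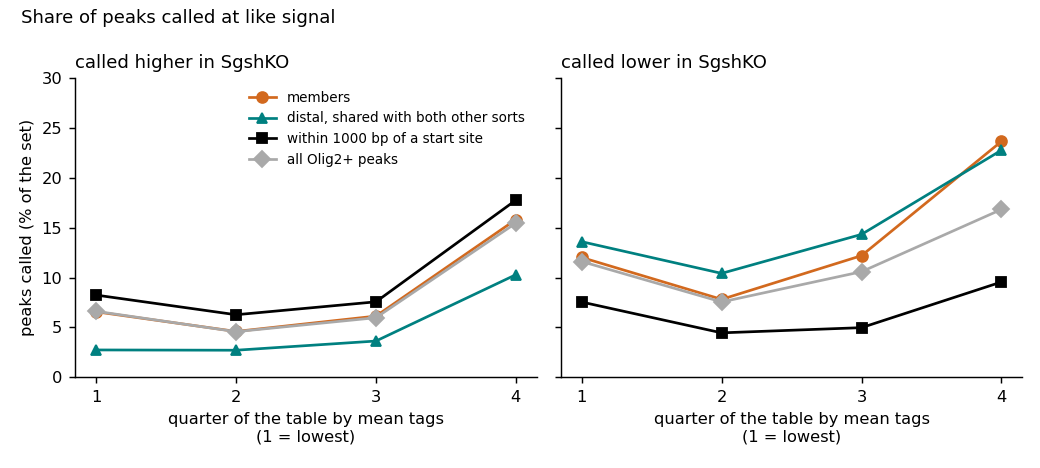
Share of Olig2+ peaks called higher (left) or lower (right) in SgshKO, in percent of each set, against the strength of the peak in 4 equal parts of the table by mean normalized tags. In the strongest part 23.7% of the Olig2-only distal peaks (labelled members) were called lower, against 9.57% of peaks within 1000 bp of a start site.

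The largest group by cell type marker was that of mature oligodendrocyte genes, and its peaks were lower in SgshKO more than higher. The list held 32 genes of myelin and of mature oligodendrocytes, 31 of which were the nearest gene of at least 1 Olig2-only distal peak, 512 in all. The same genes had 39 distal peaks found only in NeuN+ nuclei and 42 found only in microglia. Summed over the 512 peaks, the libraries held 15516 and 15683 normalized tags in WT and 12586 and 12681 in SgshKO. Both SgshKO sums lay below both WT sums, at 0.810 of the WT mean, and the exact permutation test gave p = 0.333. Of the 512 peaks, 117 (22.9%) were called lower and 21 (4.10%) higher, beside 12.6% and 7.26% of all Olig2-only distal peaks, with a median log2 change of -0.28. The number called lower was 48 without WT replicate 1, 50 without WT replicate 2 and 27 with DESeq2, and the median stayed between -0.32 and -0.20 under the alternatives tried.

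Those calls were concentrated at 2 genes. Mobp, which encodes a small basic protein of compact myelin, was nearest to 56 Olig2-only distal peaks. Their summed tags were 1799 and 1818 in WT against 1015 and 985 in SgshKO. Of the 56, 35 were called lower and 1 higher, with a median log2 change of -0.87, and 54 had a change below 0. The strongest, 5072 bp upstream of the start (chr9:120144564-120144777), held 251 and 273 tags in WT and 144 and 150 in SgshKO, with a log2 change of -0.83 (SE 0.09). The main start-site peak of Mobp fell too, from 236 and 219 tags to 129 and 104 (log2 change -0.97, limma adjusted p = 1.5e-07). The count called lower was 20 without WT replicate 1, 18 without WT replicate 2 and 9 with DESeq2.

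Mbp, the gene of myelin basic protein, a main constituent of the myelin sheath, was nearest to 67. Their sums were 2161 and 2149 in WT against 1502 and 1533 in SgshKO, again without overlap. Here 24 were called lower and 0 higher, with a median of -0.49. At the main start-site peak of Mbp, 532 and 543 tags in WT compared with 370 and 402 in SgshKO (log2 change -0.48, limma adjusted p = 3.8e-06). Without WT replicate 1 or WT replicate 2 the count called lower was 10 in each case, and with DESeq2 it was 6.

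Without Mobp and Mbp, the other 389 peaks of the mature oligodendrocyte list had 58 called lower (14.9%) and 20 higher (5.14%), with a median log2 change of -0.18, closer to the values over all Olig2-only distal peaks. Among them, Cldn11, the claudin of the myelin tight junction, had 39 peaks with 10 called lower and 1 higher, and Mal, a myelin lipid-raft proteolipid, had 25 with 9 lower and 1 higher. Mag, which encodes an adhesion protein at the axon-facing membrane, had 15 with 0 lower and 1 higher. Opalin, a transmembrane sialoglycoprotein of oligodendrocytes, went the other way, with 5 of 26 called higher and 0 lower.

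Of the strongest peaks of the list, taken at 4 genes, 1 was called. The peak in intron 1 of Ppp1r14a, a phosphatase inhibitor gene, held 463 and 488 tags in WT and 459 and 423 in SgshKO (log2 change -0.11, limma adjusted p = 0.238). The strongest Mal peak, 29086 bp from the TSS, held 414 and 403 against 380 and 390 (-0.08, adjusted p = 0.389), and the strongest Cldn11 peak 389 and 387 against 328 and 368 (-0.16, adjusted p = 0.121). The called peak was that of Fa2h. Fa2h encodes the hydroxylase that makes the 2-hydroxy fatty acids of myelin lipids, and its peak held 401 and 395 tags in WT and 339 and 318 in SgshKO (-0.28, SE 0.07, limma adjusted p = 0.00602), a call lost with either WT library left out and with DESeq2. The smallest p of the list belonged to another peak assigned to Cldn11, 79566 bp away in intron 5 of Slc7a14 (chr3:31229379-31229593). It held 188 and 195 tags in WT and 97.1 and 91.1 in SgshKO, with a log2 change of -1.02 (SE 0.11, adjusted p = 7.4e-08).

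**Figure D2:**
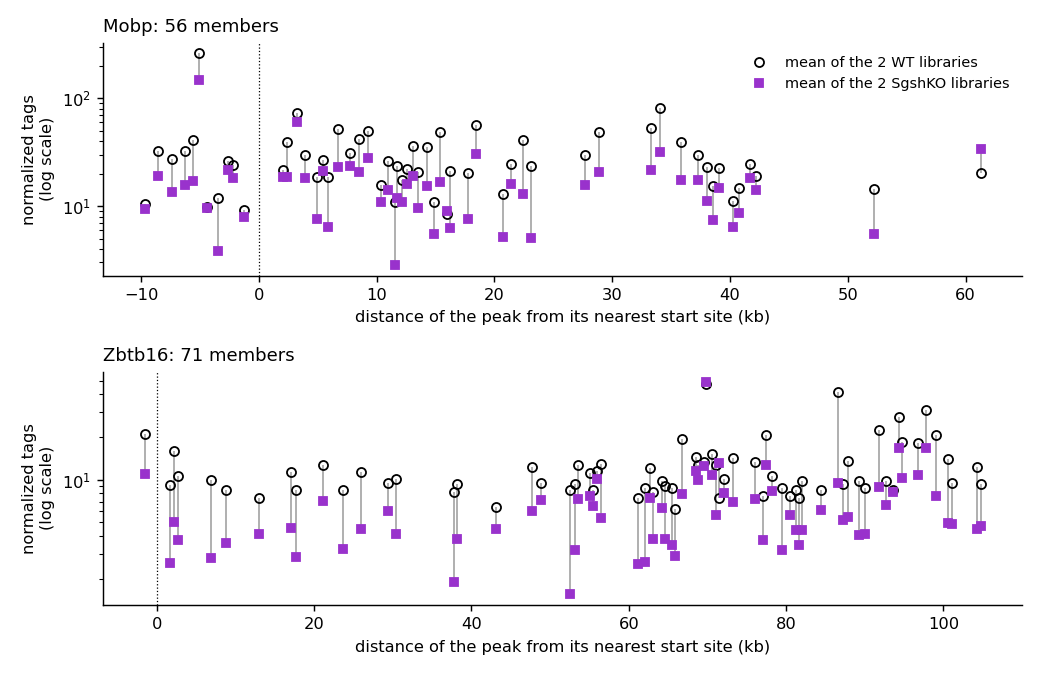
Mean normalized tags (log scale) of the 2 WT and the 2 SgshKO libraries at every Olig2-only distal peak nearest Mobp (top, 56 peaks) and Zbtb16 (bottom, 71 peaks), against the distance of the peak from its nearest start site in kb. At Mobp 54 of 56 and at Zbtb16 69 of 71 peaks had a log2 change below 0, over the whole length of both loci.

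Newly formed oligodendrocyte genes mark the next stage back. At 14 of 15 genes there were 126 Olig2-only distal peaks, with 16 called lower (12.7%), 8 higher (6.35%) and a median of -0.19. Both shares were close to the 12.6% and 7.26% over all Olig2-only distal peaks. Their summed tags overlapped between groups, at 2908 and 2961 in WT against 2836 and 2937 in SgshKO. Without WT replicate 1 the counts were 7 higher and 3 lower, and without WT replicate 2 5 higher and 4 lower. Tmem163, a zinc transporter gene, held 7 of the 16 lower calls among its 13 peaks. Higher were the strongest peak of Frmd4a, a scaffold gene, with 232 and 232 tags in WT and 284 and 322 in SgshKO (log2 change 0.38, SE 0.08, limma adjusted p = 0.00171), and that of Mpzl1, with 108 and 114 against 168 and 165 (0.58, SE 0.11, adjusted p = 0.000309). The peaks of Tmem2 and Enpp6, at log2 changes of 0.02 and -0.25, were not called. The smallest p among those called lower belonged to an intronic peak of the ion cotransporter gene Slc12a2, with 29.6 and 28.6 tags in WT and 11.7 and 9.31 in SgshKO (-1.40, SE 0.26, adjusted p = 0.000296).

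At oligodendrocyte precursor genes the calls leaned upwards. The 73 Olig2-only distal peaks at 16 of 18 genes had summed tags of 1799 and 1806 in WT against 2050 and 2175 in SgshKO. The SgshKO sums were both above WT, at 1.17 of the WT mean (exact permutation p = 0.333). Of the 73, 11 (15.1%) were called higher and 5 (6.85%) lower, beside 7.26% and 12.6% of all Olig2-only distal peaks. The median log2 change was 0.17 and ranged from 0.14 to 0.26 under the alternatives tried. The numbers called higher were 5 without WT replicate 1, 4 without WT replicate 2 and 2 with DESeq2. Ptprz1, which encodes a receptor phosphatase of precursor cells, had 3 of 5 called higher and 0 lower. The 5 lower calls were at Lrrtm3 (2 of 9 peaks), Vcan (1 of 2), Tnr (1 of 11) and Xylt1 (1 of 9). A peak in intron 2 of Sox6 (chr7:115866174-115866433), a factor that holds precursors undifferentiated, held 47.2 and 59.3 tags in WT and 132 and 146 in SgshKO (log2 change 1.38, SE 0.14, limma adjusted p = 2.7e-08). The 6 Sox6 peaks together had a median log2 change of 0.04, with 2 called higher and 0 lower. The strongest peak of Tnr, an extracellular matrix gene, held 116 and 101 tags in WT and 125 and 162 in SgshKO (0.40, SE 0.12, adjusted p = 0.0249), a call lost with either WT library or SgshKO replicate 2 left out, and with DESeq2. Those of Cspg4, the NG2 proteoglycan, and Xylt1 were not called, at 0.19 (adjusted p = 0.227) and 0.24 (adjusted p = 0.161).

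Calls at astrocyte genes also leaned upwards. At 14 of 22 genes, 57 Olig2-only distal peaks summed to 1207 and 1253 tags in WT and 1418 and 1450 in SgshKO, 1.17 of the WT mean (exact permutation p = 0.333). Of these, 12 (21.1%) were called higher and 4 (7.02%) lower, beside 7.26% and 12.6% of all Olig2-only distal peaks. The median was 0.16 (0.10 to 0.31 under the alternatives). The 4 lower calls were at S100b (2 of 15 peaks), Slc1a3 (1 of 12) and Agt (its 1 peak). With either WT library left out 6 were called higher, without SgshKO replicate 2 8 and with DESeq2 2. Near S100b, a calcium-binding protein gene that oligodendrocytes also express, the strongest peak held 106 and 107 tags in WT and 168 and 143 in SgshKO (log2 change 0.53, SE 0.11, limma adjusted p = 0.00143). The 15 S100b peaks were split, with 2 called higher, 2 lower and a median of -0.01. An intergenic peak near Id3, which encodes an inhibitor of helix-loop-helix factors, held 29.6 and 31.7 against 66.4 and 67.8 (1.11, SE 0.17, adjusted p = 3.7e-05). Peaks near Aldh1l1 and Gjb6, at 0.24 (adjusted p = 0.0703) and -0.38 (adjusted p = 0.061), were not called.

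The start sites of the lists were read against those of the whole Olig2+ table, whose start-site peaks summed to 1566860 and 1547119 tags in WT and 1598471 and 1652711 in SgshKO. Both SgshKO libraries were thus higher over all start sites. The mature oligodendrocyte list was lower there, as at its distal peaks, at 8437 and 8339 tags in WT against 7541 and 7640 in SgshKO, and so was the ependymal list, at 192 and 161 against 131 and 138. The precursor and astrocyte lists had higher sums at both kinds of peak, with start-site sums of 399.9 and 381 against 475 and 512, and of 705 and 694 against 773 and 744. At astrocyte start sites, 2 peaks were called higher and 2 lower. Distal peaks shared with another sort had median log2 changes of -0.02 for the precursor list and -0.16 for the astrocyte list, against -0.19 over all such peaks. All Olig2-only distal peaks together were lower, at 852968 and 870374 tags in WT against 801214 and 821918 in SgshKO. An opposition of start sites and distal peaks was therefore also that of the whole set. In 3 lists the start sites likewise went against the distal peaks, the heparan sulfate list given further on among them. Those of the lineage transcription factors summed to 4357 and 4416 in WT and 4451 and 4549 in SgshKO, while the distal sums were 11189 and 11320 against 10405 and 10736. Those of the lysosomal genes summed to 6625 and 6474 against 6737 and 7225, with distal sums of 2053 and 2080 against 1974 and 1981. The few start-site peaks of neuronal, microglial and endothelial or pericyte genes also had higher sums in SgshKO. Neuronal start sites, 7 peaks at 5 of 20 genes, summed to 65.9 and 70.1 against 92.9 and 89.1. Microglial ones, 4 peaks at 2 of 16 genes, summed to 240.2 and 233 against 271 and 284, but their median log2 change was -0.11. The endothelial and pericyte value came from 1 peak, at Kdr, with 3.63 and 2.56 against 8.61 and 10.6. Whether the makeup of the sorted nuclei differed between genotypes, and its part in the results above, was not tested. The plot of summed signal by library shows how far the 4 libraries stood apart for each list.

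**Figure D3:**
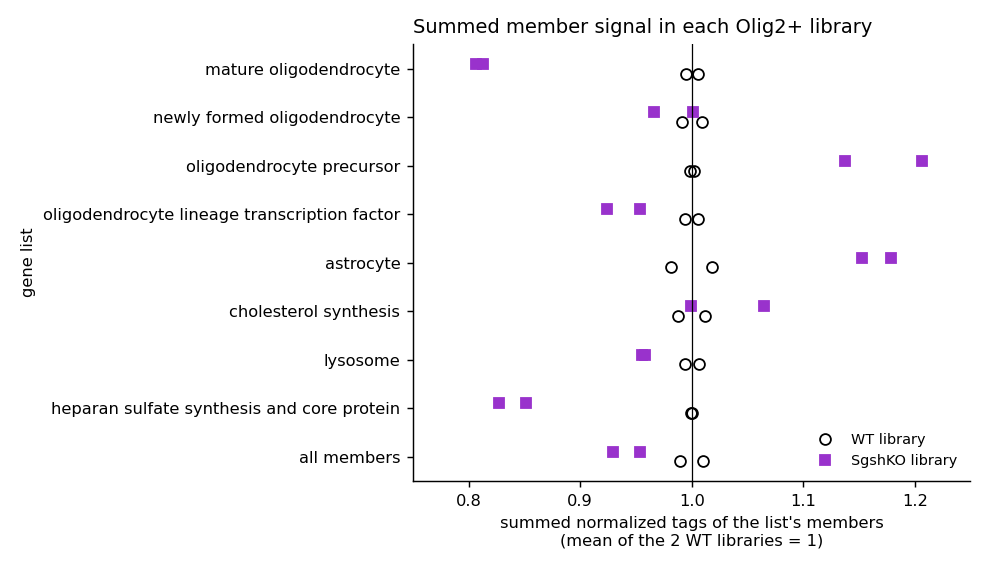
Summed normalized tags of the Olig2-only distal peaks of each gene list in each Olig2+ library, divided by the mean of the 2 WT libraries (circles WT, squares SgshKO). The mature oligodendrocyte list stood at 0.810 of WT on average in SgshKO, and the precursor and astrocyte lists both at 1.17.

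Few of these peaks were assigned to genes of other cell types. They were nearest to 2 of 20 neuronal genes and 3 of 16 microglial genes. The 2 neuronal peaks were at Rbfox3, which encodes NeuN itself, and Dlx1. The Rbfox3 peak, 22 bp from a microglial and 58 bp from a NeuN+ peak, held 7.78 and 7.67 tags in WT and 3.69 and 2.66 in SgshKO (log2 change -1.07, SE 0.38, limma adjusted p = 0.0454), from 4 to 15 reads, and its call was lost under most alternatives. Of the 24 peaks at microglial genes, 22 were at Sall1, a factor that also acts outside microglia, with 4 called higher and 1 lower. The clearest, 99694 bp from Sall1 (chr8:89143751-89143962), held 14.0 and 12.8 tags in WT and 46.1 and 51.2 in SgshKO (1.79, SE 0.22, adjusted p = 9.1e-07). Endothelial and pericyte genes had 17 peaks with 2 called higher and 0 lower, but a median log2 change of -0.26, against -0.11 over all Olig2-only distal peaks. Called higher was a Kdr intron at 43.6 and 42.4 against 59.6 and 65.1 tags (0.53, SE 0.17, limma adjusted p = 0.0245). Ependymal genes had 13, with 0 higher and 2 lower, among them an intron of the ciliary dynein gene Dnah11 at 21.3 and 17.9 against 11.7 and 7.31 (-1.0, SE 0.29, adjusted p = 0.0166). The calls at Kdr and Dnah11 were each lost with either WT library left out. Over all Olig2-only distal peaks 7.26% were called higher and 12.6% lower, and counts from so few peaks tell little about these lists.

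**Figure D4:**
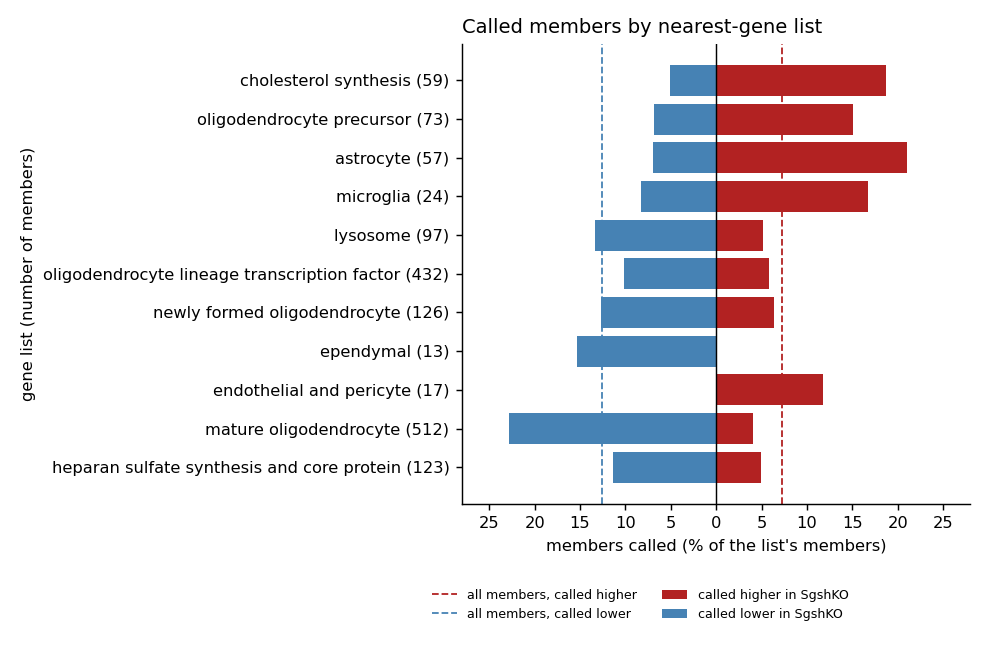
Share of the Olig2-only distal peaks of each gene list called higher (right) or lower (left) in SgshKO, in percent, with the number of peaks in brackets and dashed lines at the shares over all 35834. The mature oligodendrocyte list reached 22.9% called lower, against 12.6% of all, and the astrocyte and cholesterol lists 21.1% and 18.6% called higher, against 7.26%.

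Transcription factors of the lineage had 432 Olig2-only distal peaks at 22 of 25 genes, with 25 called higher (5.79%), 44 lower (10.2%) and a median of -0.13. Both shares lay below the 7.26% and 12.6% over all Olig2-only distal peaks. Without WT replicate 1 the lower calls numbered 16 and without WT replicate 2 15. The genes differed in their counts. Olig2 had 28 peaks with 7 called higher and 1 lower (median 0.37), and its neighbour Olig1 had 41 with 5 higher and 0 lower (median 0.32). Sox10 had 14 peaks, of which 0 were called in either direction at a median of -0.17. In the 138-peak cluster around Sox10 the sums were 4324 and 4175 tags in WT and 4009 and 4216 in SgshKO, overlapping, with 5 peaks called higher and 5 lower. Nkx6-2, a homeobox gene of myelinating cells, had 60 peaks with 7 lower and 0 higher, and Zfp536 had 86 with 10 lower and 3 higher.

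At Klf9, 52.4% of the peaks were called lower. The gene encodes a Krüppel-like factor induced by thyroid hormone and by glucocorticoids. Its 21 peaks summed to 463 and 441 tags in WT and 226 and 213 in SgshKO, and 11 were called lower and 0 higher, at a median of -0.98. The strongest, 106054 bp upstream (chr19:23035070-23035274), held 75.2 and 71.6 tags in WT and 27.1 and 24.6 in SgshKO (log2 change -1.47, SE 0.18). The start-site peak of Klf9 also fell, from 173 and 195 to 122 and 113 tags (-0.64, limma adjusted p = 8.8e-05). The count called lower was 7 without WT replicate 1, 6 without WT replicate 2 and 4 with DESeq2.

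The strongest peaks of this list of factors, taken at 4 genes, were not called. Intron 1 of Myrf, the membrane-bound regulator that switches on myelin genes, held 301 and 323 tags in WT and 292 and 262 in SgshKO (log2 change -0.17, limma adjusted p = 0.124). The values were 314 and 303 against 254 and 289 for Creb5 (-0.19, adjusted p = 0.103), 230.3 and 261 against 288 and 285 for Zfp488 (0.22, adjusted p = 0.0568) and 214 and 213 against 232 and 256 for Olig1 (0.19, adjusted p = 0.123). The Zfp488 call was gained under 6 alternatives and the Olig1 call under 2. The smallest p of the list was at Zfp365, in intron 2 (chr10:67906147-67906359), with 183 and 166 tags in WT and 63.3 and 88.4 in SgshKO (-1.21, SE 0.13, adjusted p = 1.0e-07).

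Several other genes held many calls in one direction, and these were chosen after their values were seen. Zbtb16, the gene of the zinc-finger repressor PLZF, was nearest to 71 Olig2-only distal peaks, whose tags summed to 922 and 876 in WT against 515 and 467 in SgshKO. Of these, 34 were called lower and 0 higher (median -0.92). Its start-site peak fell from 277 and 263 to 164 and 175 tags (log2 change -0.67, limma adjusted p = 3.3e-06). The strongest of the 71 averaged 47.8 tags and was not called. It held 43.05 and 51.14 tags in WT and 51.65 and 45.2 in SgshKO (log2 change 0.04). The 34 calls dropped to 6 without WT replicate 1, 4 without WT replicate 2 and 1 with DESeq2, while the median stayed between -0.99 and -0.61. Kndc1, a guanine nucleotide exchange factor gene, had 35 peaks with 20 called lower and 0 higher (sums 725 and 734 in WT, 347 and 398 in SgshKO). The lncRNA gene E030018B13Rik had 20 peaks with 17 lower and 0 higher. Qk, which encodes the RNA-binding protein quaking needed for myelin mRNAs, had 61 with 15 lower and 1 higher.

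In the other direction, Gse1, which encodes a coiled-coil protein of chromatin complexes, had 89 peaks with 19 called higher and 1 lower (median 0.50, sums 1213 and 1167 in WT, 1551 and 1542 in SgshKO). The adjoining lncRNA gene A330074K22Rik had 93 with 13 higher and 1 lower, and the joint cluster of both (chr8:120256978-120387493) had 117 peaks with 20 higher and 1 lower. Notch1, the receptor gene whose signal restrains oligodendrocyte maturation, had 13 peaks with 8 higher and 0 lower at a median of 1.03. Its strongest, in an intron (chr2:26487225-26487544), held 79.9 and 90.0 tags in WT and 134 and 121 in SgshKO (log2 change 0.58, SE 0.13). Irf2bpl had 9 of 13 higher and Lactbl1 14 of 22, with 0 lower at both. With DESeq2 the higher calls numbered 0 at Gse1, 2 at Notch1, 0 at Irf2bpl and 1 at Lactbl1, and without WT replicate 1 they numbered 8, 4, 4 and 6.

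**Figure D5:**
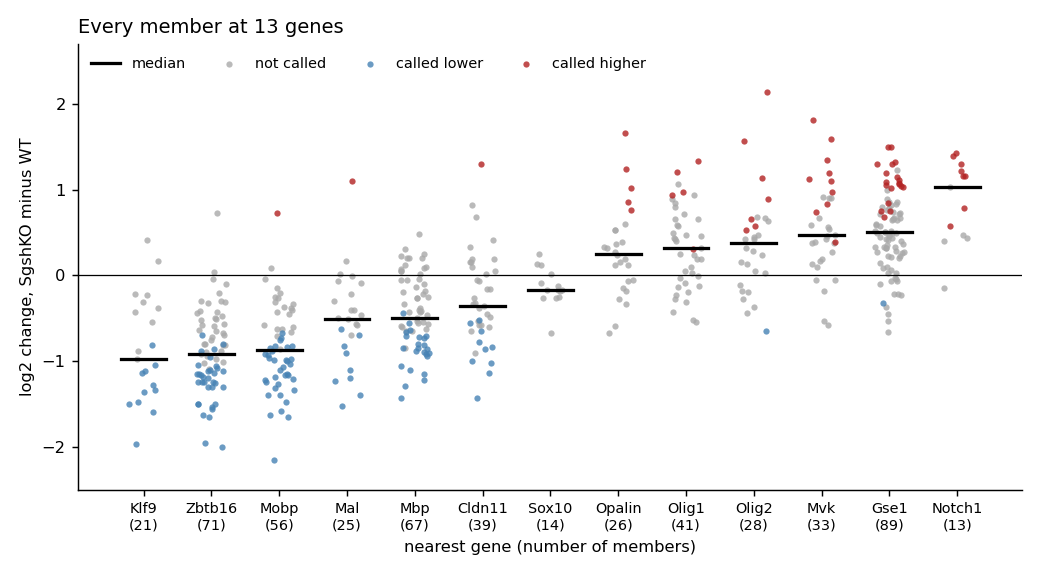
Log2 change (SgshKO minus WT) of every Olig2-only distal peak nearest 13 genes, with the number of peaks in brackets, the median as a bar and called peaks coloured. Medians ran from -0.98 at Klf9 to 1.03 at Notch1, with Sox10 at -0.17.

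Across genes, the change at the distal peaks was only loosely tied to that at the start site. Over the 1583 genes with at least 5 Olig2-only distal peaks and a start-site peak, Pearson's r between the median distal change and the change at the strongest start-site peak was 0.297 and Spearman's rho 0.253. The 2 changes had the same sign at 881 genes (55.7%). This is a correlation across genes from the same 4 libraries, which are not independent, and is given as a description.

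Because the deleted enzyme is lysosomal and acts on heparan sulfate, genes of those pathways were described as well. No Olig2-only distal peak had Sgsh as its nearest gene, so the targeted locus gave no check here. Lysosomal genes had 97 Olig2-only distal peaks at 15 of 46 genes, 43 of them at Tfeb, the master regulator of lysosome genes. Of the 97, 5 were called higher and 13 lower (5.15% and 13.4%), at a median of -0.09 that became 0.02 after quantile normalization and cyclic loess. Over all Olig2-only distal peaks the shares were 7.26% and 12.6%, so for the list as a whole the lower calls were near the background and the higher calls below it. Without WT replicate 1 there were 4 higher and 5 lower and without WT replicate 2 3 and 4. Tfeb itself had 1 higher and 3 lower. Without Tfeb, 10 of the other 54 peaks were called lower (18.5%) and 4 higher (7.41%), at a median of -0.22, so the reading of the list depended on Tfeb. Psap, the precursor of the saposins that help degrade sphingolipids, had 14 with 6 lower and 0 higher, and its strongest (chr10:60295487-60295737) held 61.2 and 63.4 tags in WT and 26.4 and 31.9 in SgshKO (log2 change -1.07, SE 0.18). A peak assigned to Cln8, 236951 bp away in intron 4 of Dlgap2, held 28.5 and 39.9 tags in WT and 83.0 and 91.1 in SgshKO (1.34, SE 0.17, limma adjusted p = 1.7e-06).

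Genes of heparan sulfate synthesis and core proteins had 123 Olig2-only distal peaks at 16 of 33 genes, with 6 called higher (4.88%), 14 lower (11.4%) and a median of -0.30. Both shares lay below the 7.26% and 12.6% over all Olig2-only distal peaks, where the median was -0.11. The lower calls numbered 4 without WT replicate 1, 6 without WT replicate 2 and 21 without SgshKO replicate 1. Their sums did not overlap, at 2997 and 3000 tags in WT and 2480 and 2554 in SgshKO. The start sites of the same list went the other way, at 2400.4 and 2386 tags in WT and 2627 and 2724 in SgshKO, with 7 start-site peaks called higher and 3 lower. Start sites over the whole Olig2+ table were also higher in SgshKO. Sulf2, the extracellular sulfatase that removes sulfate from heparan chains, held 50 of the 123 distal peaks, with 8 lower and 0 higher. Its strongest peak held 371 and 341 tags in WT and 271 and 275 in SgshKO (log2 change -0.38, SE 0.08). Ext1, a polymerase of the heparan chain, had 6 with 4 lower and 0 higher, among them an intergenic peak 282391 bp from its start (chr15:53063640-53063944) at 202 and 191 against 71.9 and 99.7 (-1.20, SE 0.13, limma adjusted p = 4.7e-08). Extl3, a related glycosyltransferase, had 3 of 6 called higher and 0 lower.

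Cholesterol synthesis, which myelin formation depends on, had 59 peaks at 10 of 23 genes, with 11 called higher (18.6%) and 3 lower (5.08%). Of the 11, 10 were at Mvk, the gene of mevalonate kinase, which held 33 of the 59. The higher calls numbered 5 without WT replicate 1 and 4 without WT replicate 2. Its sums were 811 and 816 tags in WT and 993 and 1029 in SgshKO. Without Mvk the list had 1 higher and 3 lower of 26 and a median of -0.38, opposite in sign to the 0.20 of the whole list. A peak 15888 bp from Insig1 (chr5:28055388-28055660), whose product retains the sterol sensor SCAP in the endoplasmic reticulum, fell from 144 and 136 tags in WT to 36.9 and 48.5 in SgshKO (log2 change -1.70, SE 0.15, limma adjusted p = 1.3e-09). The strongest start-site peak of Insig1 rose, from 564 and 528 to 699.7 and 770.4 tags (0.43, limma adjusted p = 3.8e-06).

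The largest changes were sought among called peaks with no overlap between the SgshKO and WT libraries. These peaks also had at least the median of 12.0 mean tags, and each was taken from a different nearest gene. Under these conditions the largest changes were at peaks with few tags in either WT or SgshKO. Among the falls, an intergenic peak 86897 bp from Actl7b (chr4:56654424-56654633) held 98.6 and 76.2 tags in WT, from 190 and 149 reads, and 4.92 and 10.6 in SgshKO, from 8 and 16 reads (log2 change -3.40, SE 0.26, limma adjusted p = 6.4e-11). A peak 8510 bp upstream of Dtnb (chr12:3563750-3564013), the gene of beta-dystrobrevin, fell from 46.2 and 41.4 to 4.30 and 5.32 (-2.95, SE 0.27, adjusted p = 4.7e-09). One in intron 1 of the kinase gene Sgk3 (chr1:9851532-9851801) fell from 38.9 and 54.7 to 6.15 and 4.65 (-2.89, SE 0.27, adjusted p = 7.0e-09), and one near Gm12724 from 68.5 and 79.3 to 7.99 and 11.3 (-2.83, SE 0.23). The remaining 4 of the 8 largest falls, at Apbb2, 1700044K03Rik, Stpg2 and Ptpn1, ran from -3.10 to -2.82. That each of these 8 had both SgshKO libraries below both WT libraries was a condition of the choice and adds no support.

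Among the rises, an intergenic peak 71990 bp from Gm20758 (chr10:111802261-111802511) went from 4.67 and 7.67 tags in WT to 40.6 and 44.5 in SgshKO (log2 change 2.63, SE 0.27, limma adjusted p = 4.2e-08). A peak in intron 2 of Dab1, a reelin pathway gene, assigned to C8b (chr4:104591050-104591252), went from 6.74 and 9.72 to 49.2 and 49.2 (2.46, SE 0.25, adjusted p = 2.5e-08). Intergenic sequence 461420 bp from the protocadherin gene Pcdh9 (chr14:94351999-94352199) held 8.30 and 17.9 tags in WT and 59.0 and 57.8 in SgshKO (2.16, SE 0.25, adjusted p = 3.1e-07). In intron 3 of Tcf12, which encodes a helix-loop-helix partner of OLIG2, a peak went from 4.15 and 3.58 to 17.2 and 23.9 (2.13, SE 0.33, adjusted p = 2.6e-05). The other 4, at Dpyd, Sash1, Thumpd3 and Sorcs3, ran from 2.47 down to 2.18. With DESeq2 the calls at Apbb2, Stpg2, Ptpn1, Dpyd, Thumpd3, Sorcs3 and Tcf12 were lost.

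The peaks whose sequences are printed above moved in both directions. The Ptgds peak held 330.4 and 301 tags in WT and 139 and 118 in SgshKO (log2 change -1.29, SE 0.10, limma adjusted p = 6.3e-11). The Kcna6 peak, with the AP-1 motif, held 173 and 172 against 247 and 249 (0.52, SE 0.09, adjusted p = 0.000113). The Mtmr2 peak, with a SOX motif on the other strand, held 29.6 and 26.6 against 77.5 and 79.1 (1.45, SE 0.17, adjusted p = 4.6e-07). Of all 203 peaks at RefSeq starts, 23 were called higher (11.3%) and 21 lower (10.3%). The shares were 7.26% and 12.6% over all Olig2-only distal peaks, and 12.7% and 7.56% over peaks within 1000 bp of a TSS.

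Calls were also counted by cluster. Of the 1395 clusters of at least 5 Olig2-only distal peaks, 490 had peaks called lower and none higher, 358 had peaks called higher and none lower, 210 had both and 337 had no called peak. Over all Olig2-only distal peaks 12.6% were called lower and 7.26% higher, so clusters of this size would often hold a call. Whether the peaks of a cluster changed together was not tested. Among the clusters with most summed tags, the Itpk1 cluster had 15 lower and 0 higher (sums 2627 and 2616 in WT, 1908 and 2003 in SgshKO) and the Rnf220 cluster 10 lower and 1 higher (2203 and 2242 against 1847 and 1878). The cluster from Tnnt2 to Csrp1 had 6 lower and 3 higher. Around Sox10 the calls were evenly split.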

How the data were processed

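The authors' deposited peak tables hold, for each peak of a sort, ATAC-seq tags per library normalized to 10000000 tags (a signal), and a Peak Score from 540 to 1000, which per the file headers is the authors' peak caller's score. Per the submitters' processing notes, Bowtie2, HOMER and the build mm10 were used, with no versions given. Multiplied by the library totals in the deposited headers, 100% of the Olig2+ values came out within 0.01 of a whole read. Gene names that a spreadsheet had turned into dates were restored for 168 Olig2+ peaks.

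Groups came from the sample titles. The main test was limma 3.58.1 (R 4.3.3) with a trended prior on log2(normalized tags + 1), 2 SgshKO against 2 WT libraries, over all 82577 Olig2+ peaks with no filter on low values. Fold changes are on that scale and understate those of weak peaks. edgeR 4.0.16 and DESeq2 1.42.0 on the recovered reads, in-peak and median-of-ratios scaling, quantile normalization, cyclic loess, thinning to equal totals, other pseudocounts, filters and distance limits, and leaving out each library were alternatives. Tested on simulated data of 82577 peaks with 200 changed, limma recovered 97% of 4-fold and 71% of 2-fold changes, with 7 false among 175 calls. The changed peaks were Olig2-only distal peaks at or above the whole table's median of 15.0 mean tags, and all peaks had the same simulated dispersion. The median of the Olig2-only distal peaks was 12.0, so the recovery does not apply to most of them. A peak was assigned to the nearest TSS as deposited, which need not be the gene it acts on. No genome of the build was used, so motifs were searched only in RefSeq start windows. The peaks to describe and the gene lists were chosen with earlier results of these data known. Named peaks included the 8 largest called increases and decreases, under the conditions on overlap, mean tags and nearest gene given with them. Also named were the 5 strongest, the 8 genes with most peaks, and the strongest 4 and the smallest p of each oligodendrocyte or astrocyte list. The rest were the smallest p of each other list, the 5 clusters with most tags and those nearest the distance limit. Some of these genes and clusters are not reported here. Other peaks and genes, those with printed sequences and the strongest peak of a gene included, were chosen after their values were seen.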

Additional observations from a re-analysis of the deposited data

How the results depend on the processing

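The number of Olig2-only distal peaks called, 7103, ran from 2552 to 6975 when a library was left out, and was 1272 with DESeq2, 1988 after thinning all libraries to equal totals (limma; 6166 with edgeR on the thinned reads), 3260 at an adjusted p under 0.01 and 4678 of the 16783 peaks at the maximum Peak Score. Of the 117 mature oligodendrocyte peaks called lower, 27 were counted with DESeq2, 47 after thinning and 48 to 115 with a library left out. The median log2 change of -0.11 kept its sign and was -0.085 at a pseudocount of 5, -0.066 without the weakest 25% of peaks, -0.047 with median-of-ratios scaling, -0.027 after quantile normalization, -0.046 with edgeR, -0.044 with DESeq2, -0.023 after cyclic loess, -0.051 with edgeR on thinned reads, -0.135 at the maximum Peak Score, -0.135 beyond 5000 bp from the TSS, and -0.131 to -0.079 with a library left out. The difference in the share of in-peak tags ran from -1.52 to -0.93 percentage points. Cyclic loess, thinning and the mature oligodendrocyte count were added after seeing the data. The causes of these shifts were not tested. Leaving out a library leaves a lone sample that is assumed to vary like the other group.

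The replicate numbers share only a number: deviations of same-numbered libraries correlated at 0.000688. With the replicate block 7588 peaks were called and the median was -0.11.

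Of 846 settings over 53 named peaks, 745 kept direction and call, 55 lost the call, 28 gained it and 18 changed sign, at 4 peaks that were not called. These were Dysf (-0.0443 after cyclic loess), Tmem2 (-0.016 after quantile normalization, -0.0304 after cyclic loess, -0.0707 to 0.114 with a library left out), Spag9 (0.0427 after quantile normalization, 0.102 after cyclic loess, -0.357 to 0.103 with a library left out) and Tmem63a (0.0164 with in-peak scaling, 0.0619 with median-of-ratios scaling, 0.0598 after quantile normalization, 0.0616 with edgeR, 0.0621 with DESeq2, 0.0504 after cyclic loess, 0.283 after thinning, 0.359 with edgeR on thinned reads, -0.123 to 0.119 with a library left out). With a median of 18 to 25 reads per peak and library, depth limits what can be called at weak peaks.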
